A study of Mus musculus with 8 samples.

Results

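Cytokine-treated islets of knockout mice were compared with cytokine-treated islets of wild-type mice, 2 libraries a side, which is 4 of the 8 libraries in the series. Membership followed the genotype and treatment labels alone. Islets, in which insulin-secreting beta cells lie among other endocrine cells, came from 2 NFATc2βKO mice, in which tamoxifen had removed NFATc2 from insulin-expressing cells of the adult animal, and from 2 wild-type mice that also received tamoxifen, with no deletion resulting. All are labelled with the strain Agouti/C57BL6, while the culture notes name C57BL/6 mice of the Jackson Laboratories as a source. Islets were released with collagenase, banded on Ficoll, picked by hand and kept overnight in 5.5 mM glucose. Both groups then spent 2 h with 3 cytokines, namely 5 ng/mL of IL1β, 10 ng/mL of TNFα and, at 50 ng/mL, IFNγ, while glucose was raised to 11 mM, so cytokines and raised glucose were given together. The age of the mice, the deleted exon, the Cre driver and whether the wild-type mice carried a Cre or were littermates are not given in the sources used here. The other 4 libraries are untreated islets of the same 4 mice. Below they are set beside the treated comparison, and they enter the fits made to all 8 libraries.

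NFATc2 is a transcription factor that waits in the cytoplasm in phosphorylated form. A rise in calcium activates the phosphatase calcineurin, which strips those phosphates and lets the factor enter the nucleus. In beta cells, where glucose raises calcium, calcineurin and NFAT proteins are known for their part in proliferation and in insulin gene expression, and in lymphocytes for the induction of cytokine genes. IL1β and TNFα act through NF-κB and IFNγ through the interferon response, and together these cytokines are used as a model of the inflammatory stress of islets in diabetes.

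The deposited tables hold the authors' comparisons, with group means and no column per library, and their genotype Mut is read here as wild type. Whole reads of the single libraries could be recovered from those means for 16319 of 16333 genes (99.9%), and the values per library given below are these reads divided by the authors' size factors, here called normalized counts. Recovered totals were 15451858 to 23827694 reads in the 4 treated libraries. Each group held 1 library with reads of Y-linked genes and 1 with high Xist, called the male and the female library here, since the means do not tie a library to a mouse number. The knockout female library also held 37 Y-linked reads, against 2 in the wild-type female library. It stood apart in digestive enzymes and antibody transcripts: its 27 measured acinar genes summed to 183104 normalized counts, against 34412 in the knockout male, 41712 in the wild-type female and 9730 in the wild-type male library.

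Among the 16333 genes of the authors' deposited table, 133 were called higher in knockout islets (0.814%) and 30 lower (0.184%) at a false discovery rate (FDR) below 0.05. This is 0.998% of all genes tested, and 960 genes had an unadjusted p below 0.05. Every count of calls in a list below is to be read against these shares of 0.814% and 0.184%. Of the 133 higher calls 103 were at least 2-fold, and of the 30 lower calls 14 were. The median log2 fold change was 1.96 over the higher and -0.92 over the lower calls. Higher calls included many genes of low level: 65 of 133 had a mean under 100 normalized counts over all libraries, against 5 of the 30 lower calls. In all 163 called genes both knockout libraries lay on the same side of both wild-type libraries. Over all recovered genes this held for 14.7% above and 14.2% below, and no weight rests on it for genes chosen by the same contrast.

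The test behind these calls bears on every result that follows. When limma was fitted to the recovered reads of all 8 libraries, it called 2 genes at an adjusted p below 0.05, Top2a and Ptger3 (0.0123% of genes), with 1168 at an unadjusted p below 0.05. With sex as a covariate it called 567 genes, 356 higher (2.18%) and 211 lower (1.29%), among them 152 of the 163 in the same direction. Both fits count the treated and untreated libraries of a mouse as independent, although they share an animal. Unless another test is named, a gene "called" below is called in the authors' deposited table, and all but Top2a and Ptger3 lose the call in limma without the sex covariate. With 2 mice a group, genotype cannot be told apart from other differences between these mice.

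**Figure D1:**
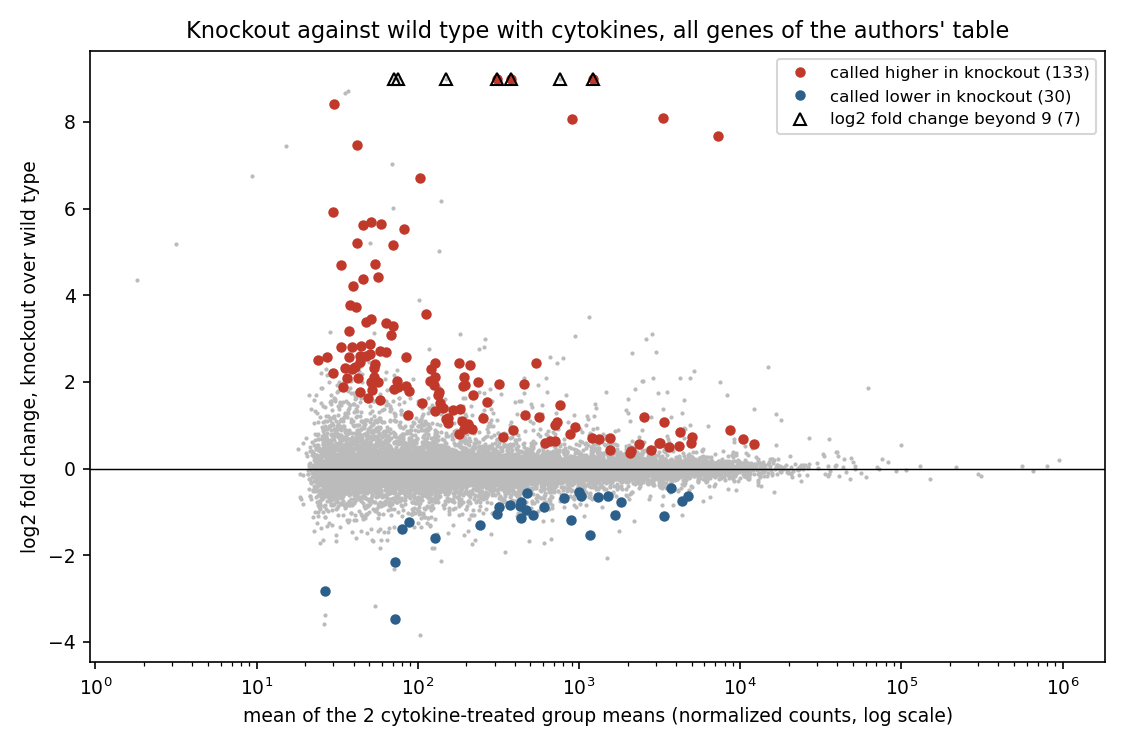
Log2 fold change of knockout over wild-type cytokine-treated islets (vertical axis) against the mean of the 2 treated group means in normalized counts (horizontal axis, log scale), 1 point per gene, from the authors' deposited table. The 133 genes called higher (red) include 65 with a mean under 100 over all libraries and reach far larger fold changes than the 30 called lower (blue), and triangles mark genes drawn at the edge because their log2 fold change is beyond it.

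The targeted gene was lower in both knockout libraries but short of the threshold. Nfatc2 (ENSMUSG00000027544, chromosome 2, 168476410 to 168601657, minus strand, GRCm38) held 899 and 987 normalized counts in the knockout male and female libraries and 1144 and 1646 in the wild-type male and female libraries. Every knockout value lay below every wild-type value, and the knockout mean was 32.4% lower. In the authors' deposited table its log2 fold change was -0.56 (SE 0.24, FDR 0.474), while limma with the sex covariate gave an adjusted p of 0.0426. Reads counted along the entire gene check the deletion only in part, since the deleted exon is not known and other islet cells keep their own Nfatc2. None of the 147 measured genes within 10 Mb of Nfatc2 was called. Of the 24 listed NFAT family members and calcineurin subunits, partners and targets, Nfatc2 included, 0 were called. With 0.998% of all genes called, a list of this size holds few or none. Their median log2 fold change was 0.06, with 16 positive, in the authors' deposited table. Rcan3, a calcineurin regulator, had the next smallest p of that list, with a log2 fold change of -0.16 (SE 0.11, FDR 1) in the authors' deposited table.

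Genes of cell division were higher in the knockout islets. Of 48 measured proliferation genes 11 were called higher, against 0.814% of all genes, and 0 lower in the authors' deposited table. There 46 were positive and the list's median log2 fold change was 0.86, against -0.00 over all genes. In 43 of the 48 both knockout libraries lay above both wild-type libraries (14.7% of all genes). Top2a, the topoisomerase that untangles DNA before mitosis (chromosome 11, 98992943 to 99024189, minus strand), held 504 and 502 normalized counts in the knockout male and female libraries against 126 and 136 in the wild-type ones. The groups are far apart and the libraries within each nearly equal, and Top2a had the smallest p of all genes: it was 3.85-fold higher, with a log2 fold change of 1.95 (SE 0.21, FDR 4.9e-17) in the authors' deposited table. Mki67, which encodes the proliferation antigen Ki-67, held 704 and 752 against 201 and 172 normalized counts. It was 3.91-fold higher, with a log2 fold change of 1.96 (SE 0.22, FDR 1.2e-14) in the authors' deposited table.

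Besides Top2a and Mki67 the list held 9 calls, all named here for that reason, and these genes serve mitosis in distinct ways. Kif11 is the motor that pushes spindle poles apart, Tpx2, Nusap1 and Hmmr bind spindle microtubules, Bub1 and Knl1 belong to the kinetochore checkpoint, Cenpf is a kinetochore protein, Ncapg a condensin subunit and Pbk a mitotic kinase. Their log2 fold changes lay between 1.76 (Pbk) and 2.35 (Nusap1) in the authors' deposited table, with means of 48.5 (Bub1) to 137 (Kif11) normalized counts in the knockout group. Tpx2, for example, held 86.6 and 87.5 normalized counts in the knockout against 20.8 and 19.5 in the wild-type libraries. Listed genes of DNA replication were not called: Mcm2 stood at 0.31, Mcm5 at 0.72, Pcna at 0.39, Rrm2 at 0.84 and Cdc6 at 1.18 (log2 fold changes, FDR 0.996, 0.385, 0.402, 0.174 and 0.0556) in the authors' deposited table. Outside the list, replication genes were among the higher calls, and these were picked after their values were seen. Pole, the catalytic subunit of DNA polymerase epsilon, held 156 and 208 normalized counts against 60.8 and 85.8, Orc6 of the origin recognition complex 846 and 775 against 576 and 465, and Pclaf, a PCNA-binding protein, 73 and 55.8 against 8.33 and 18.5. In the authors' deposited table their log2 fold changes were 1.32, 0.64 and 2.29 (FDR 0.0234, 0.0237 and 0.0277). The D-type cyclins, which couple growth signals to the cycle, were at 0.01 for Ccnd1, -0.04 for Ccnd2 and -0.08 for Ccnd3 there, on the same log2 scale. The list of replication-type histones held 0 calls among 27, with a median log2 fold change of 0.04, and was led by Hist1h1a (1.41, FDR 0.0538) and Hist1h3c (2.31, FDR 0.0976), in the authors' deposited table. Hist1h2bm, a histone gene outside that list and picked after its value was seen, was called higher at 1.58 (log2, FDR 0.0267) in the authors' deposited table. In total RNA of a whole islet, fewer cells of a kind and less RNA per cell cannot be told apart. Lymphocyte markers were also higher in the knockout libraries, with sums of 3764 and 42182 normalized counts against 333 and 467 in wild type, and Ptprc at 1089 and 742 against 188 and 151. Their part in the proliferation counts was not tested.

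**Figure D2:**
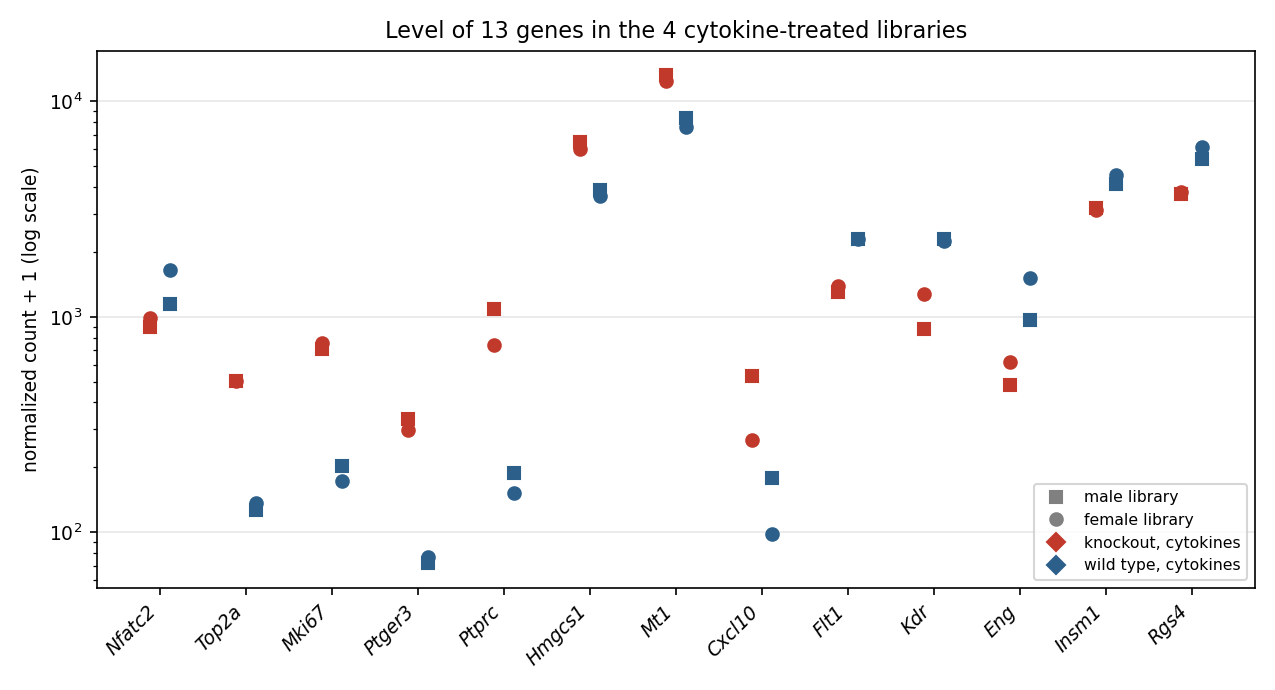
Normalized counts plus 1 (vertical axis, log scale) of genes the text turns on in the 4 cytokine-treated libraries, with squares for male and circles for female libraries, red for knockout and blue for wild type. For Top2a the knockout points sit at 504 and 502 and the wild-type points at 126 and 136, while for Nfatc2 the groups lie much closer together.

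Because these genes moved together, their promoters were searched for the sequences known to time transcription to late cell cycle phases. One is the cell cycle homology region (CHR, TTTGAA), the other the CCAAT box (CCAAT), each counted on both strands in the window from 250 bases before to 50 after the gene start in RefSeq (GRCm38.p6). Promoter sequences matched 10770 genes measured and 9 of the 11 called proliferation genes. The CHR letters were in 7 of those 9 windows (77.8%) against 11.6% of all windows, and the CCAAT letters in 7 of 9 (77.8%) against 38.3%. Cell division genes are known for such letters, so the choice of list already favoured this excess. It says nothing of the genotype, and uncalled list members were not counted. Top2a and Mki67, the leading pair, hold both. Their 250 bases before the start are shown because they carry these repeated letters, with every CHR and CCAAT match on either strand in capitals (TTCAAA and ATTGG are the reverse strand). The Top2a window is chr11:99024190-99024439 and the Mki67 window chr7:135716380-135716629, both on the minus strand.
Top2a: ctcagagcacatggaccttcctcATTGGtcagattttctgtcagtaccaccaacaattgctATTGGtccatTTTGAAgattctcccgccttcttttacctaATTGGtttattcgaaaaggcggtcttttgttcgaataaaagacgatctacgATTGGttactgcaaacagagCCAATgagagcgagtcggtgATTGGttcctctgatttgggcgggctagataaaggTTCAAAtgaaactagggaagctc
Mki67: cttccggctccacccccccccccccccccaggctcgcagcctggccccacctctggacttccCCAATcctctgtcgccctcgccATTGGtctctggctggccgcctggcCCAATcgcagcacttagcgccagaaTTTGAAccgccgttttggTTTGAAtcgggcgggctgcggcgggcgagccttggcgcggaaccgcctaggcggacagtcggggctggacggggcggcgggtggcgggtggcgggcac
The Top2a window has 6 CCAAT matches and 2 CHR matches, the nearer CHR at 23 bases before the start. In Mki67 there are 3 CCAAT and 2 CHR matches, the latter at 116 and 98 bases before the start. A match describes letters and shows no binding.

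Ptger3, the EP3 receptor for prostaglandin E2, which lowers cyclic AMP and restrains insulin secretion, was 4.3-fold higher in knockout islets (chromosome 3, 157566892 to 157645888, plus strand). It held 335 and 296 normalized counts in the knockout male and female libraries and 70.8 and 76 in the wild-type ones. Its log2 fold change was 2.11 (SE 0.24, FDR 2.5e-14) in the authors' deposited table, and limma without a covariate also called it (adjusted p 0.0353). It was the only call among 12 measured genes of prostaglandin E2 synthesis and reception, whose median log2 fold change was 0.01 in the authors' deposited table. Ptger4, the EP4 receptor, which raises cyclic AMP, held 295 and 150 against 91.6 and 54.3 normalized counts. Its groups did not overlap, yet its log2 fold change of 1.61 (SE 0.59, FDR 0.272) did not pass in the authors' deposited table. The inducible cyclooxygenase Ptgs2 stood at -1.53 (log2, FDR 0.702) there.

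In lipid synthesis 2 of 36 measured genes were called, both higher and both of the cholesterol branch, against 0.814% called higher over all genes. Hmgcs1, which makes the HMG-CoA that enters the mevalonate pathway, held 6479 and 5997 normalized counts in the knockout against 3881 and 3636 in the wild-type libraries. It was 1.66-fold higher, with a log2 fold change of 0.73 (SE 0.10, FDR 4.5e-09) in the authors' deposited table. Msmo1, a sterol demethylase, held 4045 and 3574 against 2706 and 2389 normalized counts (1.5-fold). Its log2 fold change was 0.58 (SE 0.14, FDR 0.00551) in the authors' deposited table. Over the list 24 of 36 were positive, these 2 included, the median log2 fold change was 0.15, and Stard4, Fads1, Dhcr7 and Insig1 had an FDR between 0.0607 and 0.0973 in the authors' deposited table. Between the male libraries 32 of 36 were positive (median log2 ratio 0.33) and between the female libraries 20 of 36 (median 0.06).

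Some metal-binding and glutathione genes were higher as well. The list of oxidative stress genes and metallothioneins held 4 calls among 26 measured, all higher, against 0.814% called higher over all genes. In this list 9 were negative and the median log2 fold change was 0.10, in the authors' deposited table. Hmox1, heme oxygenase 1, for example, was at -0.56 (log2, FDR 0.34) in the authors' deposited table. Mt1, a metallothionein that binds zinc, held 13239 and 12409 normalized counts in the knockout and 8385 and 7578 in the wild-type libraries. Its neighbour Mt2 held 11266 and 11105 against 7261 and 4895. By group mean Mt1 was 1.61-fold and Mt2 1.84-fold higher. Mt1 and Mt2 had log2 fold changes of 0.68 (SE 0.15, FDR 0.00114) and 0.88 (SE 0.20, FDR 0.00318) in the authors' deposited table. Also called in this list were Gpx3, a secreted glutathione peroxidase, at 0.57 (FDR 0.00506), and Gclc, the catalytic subunit of glutathione synthesis, at 0.43 (FDR 0.0457), as log2 fold changes in the authors' deposited table. Slc30a1, the zinc exporter of the plasma membrane, was outside the lists and was picked after its value was seen: 1589 and 1680 normalized counts against 1135 and 907, a log2 fold change of 0.68 (FDR 0.00706) in the authors' deposited table.

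For the cytokine pathways the counts of calls say little, since at 0.998% of all genes called, lists of this size hold few or none. The NF-κB and inflammation list held 0 calls among 40 genes, with a median log2 fold change of 0.05, and the interferon-response list 0 among 45, with a median of 0.06, in the authors' deposited table. Within a sex the NF-κB list pointed both ways: 32 of 40 were higher in the knockout male library (median log2 ratio 0.30) and 12 of 40 in the knockout female library (median -0.15). Nfkbia, which NF-κB induces as its own inhibitor, held 1030 and 896 normalized counts in the knockout and 866 and 952 in the wild-type libraries. Birc3, an inhibitor of apoptosis induced by NF-κB, held 833 and 664 against 619 and 647. The Nfkbia groups overlapped and the Birc3 groups did not, and neither was called (log2 fold changes 0.08 and 0.24, each FDR 1, in the authors' deposited table). Traf1, a TNF receptor adaptor, ranged from 46.9 to 155 normalized counts in the knockout and from 10.8 to 38 in the wild-type libraries. Its log2 fold change of 2.06 had an SE of 0.79 and an FDR of 0.345 in the authors' deposited table. B2m, the MHC class I light chain, was at 0.46 (FDR 0.168) and Irf8, an interferon regulatory factor of leukocytes, at 0.63 (FDR 0.571) on that log2 scale.

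Cxcl10 was the only chemokine called, out of 9 measured. This interferon-induced attractant of T cells (chromosome 5, 92346638 to 92348889, minus strand) held 529 and 266 normalized counts in the knockout male and female libraries and 177 and 96.7 in the wild-type ones. Within each genotype the male library was the higher. It was 2.91-fold higher, with a log2 fold change of 1.54 (SE 0.42, FDR 0.0308) in the authors' deposited table. Cxcl11, its neighbour, which binds the same receptor, held 115 and 64.7 against 25.8 and 8.69 normalized counts. With a log2 fold change of 2.36 (SE 0.69) and an FDR of 0.061 in the authors' deposited table it fell short. The remaining chemokines pointed both ways: the list's median log2 fold change was -0.08 in that table, and 0.73 between the male and -0.40 between the female libraries. The Cxcl10 promoter is shown because it carries the letters of both cytokine pathways, with matches on either strand to an NF-κB consensus and to an interferon-stimulated response element core in capitals (chr5:92348890-92349139, minus strand, RefSeq GRCm38.p6).
Cxcl10: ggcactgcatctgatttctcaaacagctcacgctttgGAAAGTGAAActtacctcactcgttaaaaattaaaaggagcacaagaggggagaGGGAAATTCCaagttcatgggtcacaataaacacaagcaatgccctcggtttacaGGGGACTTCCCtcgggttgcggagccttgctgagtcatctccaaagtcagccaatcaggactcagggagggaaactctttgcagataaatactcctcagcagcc
The NF-κB consensus matches at 159, 104 and 103 bases before the start, the last pair overlapping, and the interferon element at 213. The NF-κB consensus was in 67.1% of all windows, and the interferon element was in 2.9%. The core that NFAT proteins bind (GGAAA, either strand) also occurs here, at 214, 158 and 35 bases before the start, where the first pair overlaps the capitals. Over the called genes with a window that core was in 60 of 93 higher (64.5%) and 16 of 23 lower (69.6%) promoters, against 58.8% of all windows. The longer core GGAAAA was in 29%, 21.7% and 21.1%, and a forkhead core searched for comparison (TGTTTAC) in 3.23%, 0% and 2.49%.

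Endothelial genes formed the clearest group among the lower calls. Of 16 measured markers of blood vessel cells 8 were called lower and 0 higher, against 0.184% lower over all genes. All 16 were negative, with a median log2 fold change of -0.79 in the authors' deposited table, and in 14 both knockout libraries lay below both wild-type libraries (14.2% of all genes). Flt1, VEGF receptor 1, held 1304 and 1383 normalized counts in the knockout and 2301 and 2286 in the wild-type libraries. Kdr, VEGF receptor 2 and the main signalling receptor for VEGF-A, held 874 and 1280 against 2300 and 2255. The groups stood well apart for both, and Flt1 was 41.4% and Kdr 52.7% lower. The log2 fold changes were -0.77 (SE 0.14, FDR 1.3e-05) and -1.08 (SE 0.22, FDR 0.00066) in the authors' deposited table.

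Eng, a TGFβ co-receptor of endothelium, held 481 and 613 against 965 and 1519 normalized counts (56% lower). Emcn, a sialomucin of capillaries, held 246 and 304 against 607 and 595 (54.2% lower). Pecam1, the junction protein CD31, held 760 and 841 against 1173 and 1317 (35.7% lower), the smallest fall of these. The log2 fold changes of Eng, Emcn and Pecam1 were -1.18, -1.13 and -0.64 (FDR 0.00094, 0.0023 and 0.00245) in the authors' deposited table. Robo4, a guidance receptor of vessels, was at -0.77 (FDR 0.00506), and the remaining calls of the list, the cadherin Cdh5 and the secreted Egfl7, were at -0.65 (FDR 0.0154) and -0.84 (FDR 0.0277), as log2 fold changes in that deposited table by the authors. Adgrl4, an adhesion receptor of endothelium outside the list, held 271 and 398 against 784 and 622 normalized counts, with a log2 fold change of -1.08 (FDR 0.00429) in the authors' deposited table. The summed level of the endothelial list was 6444 and 8013 normalized counts in the knockout and 11839 and 13977 in the wild-type libraries, so it was low in both knockout libraries. In the untreated libraries of the same mice the sums were 7459 and 8432 against 11726 and 10443. Stromal markers, which mark other cells of the vessel wall and matrix, did not share this split in sum: they held 11193 and 26028 in the knockout and 7073 and 23725 in the wild-type libraries, with 0 of 21 called and 8 negative. Members of that list pointed both ways, with 13 of 21 positive. The pericyte markers Rgs5 and Cspg4 were at -0.48 (FDR 0.231) and -0.70 (FDR 1) as log2 fold changes in the authors' deposited table. Acta2, a smooth muscle actin, was at 1.57 (FDR 0.75) on that scale. Rgs5 held 468 and 539 against 640 and 767 normalized counts. The part of islet vessel content in the endothelial counts was not tested.

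Lymphocyte and antibody genes were the largest changes of all. Of 11 measured lymphocyte markers 10 were called higher, against 0.814% of all genes, with a median log2 fold change of 3.08 in the authors' deposited table. Listed T-cell markers such as Cd3e, Cd4 and Cd8a were not among the genes of the authors' deposited table. The measured markers are largely those of B cells. Lck, a kinase of T cells, was also called higher, with a log2 fold change of 2.03 (FDR 0.00552) in the authors' deposited table. Ptprc, the leukocyte common antigen CD45, held 1089 and 742 normalized counts in the knockout male and female libraries and 188 and 151 in the wild-type ones. It was 5.4-fold higher, with a log2 fold change of 2.43 (SE 0.32, FDR 8.4e-11) in the authors' deposited table. Ms4a1, the B-cell surface protein CD20, held 90 and 110 against 0.833 and 3.26 normalized counts, which are 106 and 87 reads against 1 and 3. Its log2 fold change was 5.70 (SE 0.93, FDR 1.4e-06) in the authors' deposited table.

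Both knockout libraries were alike in some of these genes and differed in others. Among those alike, besides Ms4a1, Cd22 held 114 and 118, Pax5 79 and 85, Bank1 119 and 113 and Ighd, the constant region of IgD, 95.9 and 83.7 normalized counts in the male and female library. In the wild-type libraries these 4 genes held at most 11.7. Antibody genes were far higher in the knockout female library. Ighm, the IgM heavy chain, held 1186 in the knockout male and 27927 in the knockout female library, against 14.2 and 128 in wild type. Igkc, the kappa light chain constant region, held 609 and 12708 against 5 and 44.5. Jchain, which joins IgM and IgA into polymers, held 138 and 3477 against 5.83 and 7.6, so for all of these the female library exceeded the male many-fold. In untreated islets of the same knockout mice Ighm held 3983 and 17557 and Cd22 17 and 45.4 normalized counts in the male and female library. From untreated to treated islets of the knockout male mouse, Ighm was thus lower and Cd22 higher. The log2 fold changes of Ighm, Igkc and Jchain were 7.68 (SE 1.62, FDR 0.00088), 8.08 (SE 1.58, FDR 0.00018) and 8.07 (SE 1.75, FDR 0.0014) in the authors' deposited table. Cd22, Pax5 and Ighd were picked after their values per library had been seen, so their likeness describes these genes only. Other lymphoid genes differed, such as Ccr7 at 178 and 29.2.

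The variable segments with the largest fold changes rested on the knockout female library. Igkv14-126, a kappa variable segment, had 3867 reads there, 1 in the knockout male library and 0 in both wild-type libraries, and Ighv1-11, a heavy chain segment, had 982, 1, 0 and 0. The group ratios are thus at least 1735-fold and at least 441-fold, against a floor of 3 reads over the wild-type group, and they describe 1 mouse. Other segments also had reads in the knockout male library, such as Igkv5-39 with 54.3 and 121 normalized counts against 0 and 8.69. Ighg3, an IgG heavy chain constant region, had 216 and 1046 reads against 0 and 0 (at least 534-fold higher). Reads of related segments can be shared among them, so each single segment is uncertain. Of the 24 genes annotated as immunoglobulin 10 were called higher, against 0.814% of all genes. The median log2 ratio of knockout over wild type was 3.37 between the male and 6.53 between the female libraries, on normalized counts plus 1. Pou2af1, a coactivator of B-cell transcription, held 88.3 and 318 against 0.833 and 3.26 normalized counts. Cmah, a sialic acid hydroxylase, held 82.4 and 192 against 3.33 and 4.34. These had log2 fold changes of 6.71 (SE 1.01, FDR 6.1e-08) and 5.17 (SE 0.81, FDR 3.0e-07) in the authors' deposited table, and like the antibody genes they were higher in the knockout female than in the knockout male library.

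**Figure D3:**
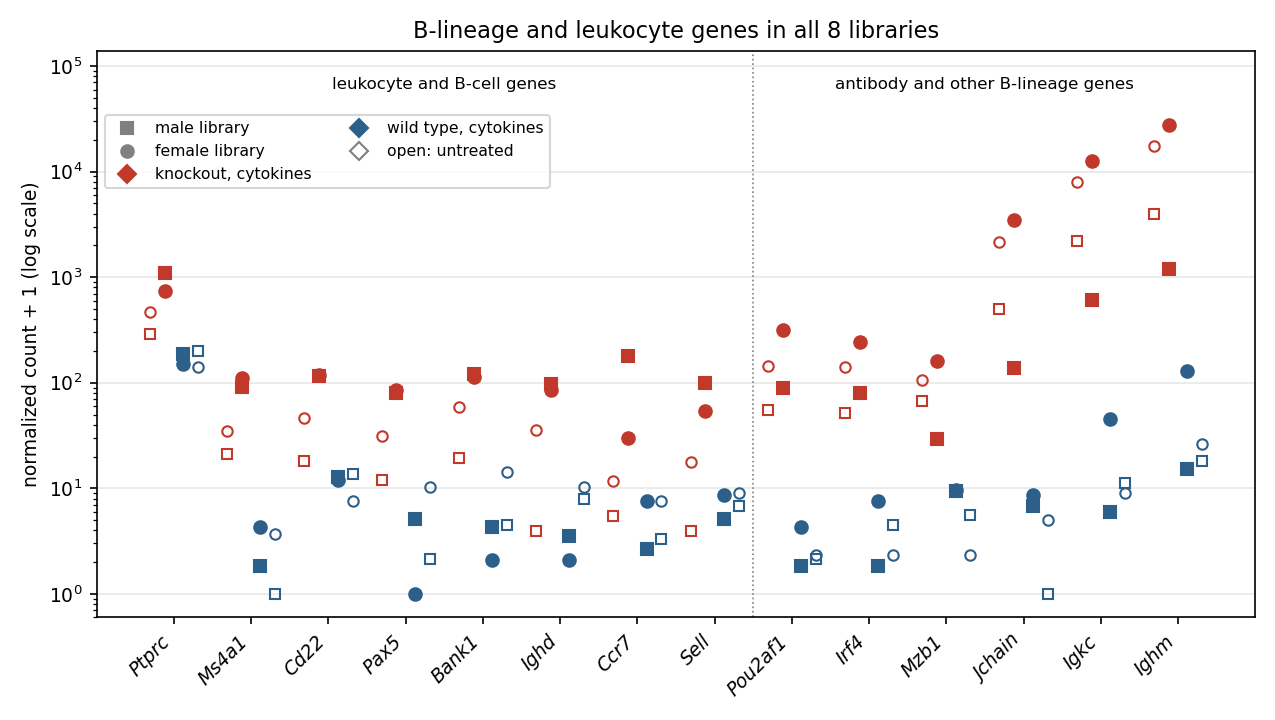
Normalized counts plus 1 (vertical axis, log scale) of leukocyte and B-lineage genes in all 8 libraries, with squares for male, circles for female, red for knockout, blue for wild type, filled for cytokines and open for untreated. Left of the dotted line Ms4a1, Cd22, Pax5, Bank1 and Ighd are alike in both treated knockout libraries, and right of it Jchain, Igkc and Ighm are far higher in the knockout female than in the knockout male library.

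Myeloid markers held fewer calls and smaller fold changes. Of 18 measured macrophage genes 3 were called higher, against 0.814% of all genes. In this list 17 were positive, and the median log2 fold change was 0.52 in the authors' deposited table. Lyz2, lysozyme of macrophages, held 1282 and 955 normalized counts in the knockout and 343 and 471 in the wild-type libraries (2.75-fold). Laptm5, a lysosomal membrane protein of leukocytes, held 357 and 345 against 141 and 176 (2.22-fold). Their log2 fold changes were 1.46 (SE 0.28, FDR 9.9e-05) and 1.16 (SE 0.22, FDR 0.00011), and that of Cybb, the phagocyte NADPH oxidase subunit, was 1.52 (FDR 0.00022), in the authors' deposited table. Genes more restricted to macrophages were not called: Adgre1, the marker F4/80, was at 0.34 and Csf1r, the CSF1 receptor, at 0.47 on that log2 scale (FDR 1 and 0.607). The complement genes C1qa, C1qb and C1qc were at 0.57, 0.60 and 0.46 there (FDR 0.368, 0.661 and 0.773). Still, in 15 of the 18 genes both knockout libraries lay above both wild-type libraries (14.7% of all genes). In all, 53 of the 163 calls lie in at least 1 of the lists or are of immunoglobulin type.

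Exocrine markers were high in both knockout libraries relative to the wild-type library of the same sex, but no acinar gene passed in the deposited table. By limma with sex as a covariate 15 of 27 acinar genes were called higher, against 2.18% of all genes. All 27 measured acinar genes were positive with a median log2 fold change of 2.03, and 0 were called, in the authors' deposited table. The sums given above show the female libraries above the male ones in each genotype, so the groups overlap: the wild-type female library (41712) exceeded the knockout male library (34412). Reg1, a secreted lectin of acinar cells, held 1316 and 8881 normalized counts in the knockout and 197 and 989 in the wild-type libraries, with a log2 fold change of 3.10 (SE 1.37, FDR 0.58) in the authors' deposited table. Among 15 measured duct genes 1 was called in each direction. Krt8, an epithelial keratin, held 5089 and 5837 against 2656 and 3432 normalized counts, with a log2 fold change of 0.84 (SE 0.21, FDR 0.00853) in the authors' deposited table. Prom1, the membrane protein CD133 of duct and progenitor cells, held 1578 and 2719 against 4231 and 4989. It was 53.4% lower, with a log2 fold change of -1.10 (SE 0.29, FDR 0.0236) in the authors' deposited table. What part exocrine tissue has in any of these differences was not tested.

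Islet hormones were not called in either direction. Ins1 and Ins2, the insulin genes, had group means of 565513 and 1009372 normalized counts in knockout and 547303 and 880435 in wild-type islets in the authors' deposited table, and values per library could not be recovered for them. Their log2 fold changes were 0.05 (SE 0.09) and 0.20 (SE 0.11), and that of the glucagon gene Gcg was 0.03 (SE 0.57), in the authors' deposited table. Sst, which encodes somatostatin, held 18589 and 23960 normalized counts in the knockout and 16303 and 35801 in the wild-type libraries. Ppy, which encodes pancreatic polypeptide, held 14842 and 19795 against 17074 and 13090. The groups overlapped for both. Insulin, glucagon and somatostatin transcripts at such levels are those of the labelled tissue, pancreatic islet.

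Of 34 beta-cell genes 2 were called, both lower, and the list's median log2 fold change was -0.05 in the authors' deposited table. Rgs4, which shortens signalling of G-protein-coupled receptors, held 3698 and 3777 normalized counts in the knockout and 5385 and 6170 in the wild-type libraries (35.3% lower). Insm1, a zinc-finger factor needed for endocrine differentiation, held 3199 and 3120 against 4125 and 4532 (27% lower). Rgs4 and Insm1 had log2 fold changes of -0.63 (SE 0.13, FDR 0.00109) and -0.45 (SE 0.11, FDR 0.0126) in the authors' deposited table. Pdx1, Mafa and Nkx6-1, transcription factors of the mature beta cell, were at 0.09, 0.12 and 0.03 on the log2 scale there, each with an FDR of 1. Of 40 measured neuronal-type genes, many of which endocrine cells share, 31 were negative with a median log2 fold change of -0.20, and 2 were called, Insm1 and Cntn1, in the authors' deposited table. Cntn1, a neural adhesion protein, held 1133 and 1257 against 1691 and 1972 normalized counts, with a log2 fold change of -0.62 (SE 0.17, FDR 0.0383) in the authors' deposited table.

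Lists with no call in the deposited table are given by their medians in the authors' deposited table, as log2 fold changes. Alpha-cell genes were at -0.25 over 15 and delta, PP and epsilon cell genes at -0.31 over 12, with 11 of the latter negative. Lactogen signalling and serotonin synthesis genes, known from the beta cell of pregnancy, were at 0.47 over 16, led by Matn2 (0.99, SE 0.31, FDR 0.106). Of these 16, limma with sex as a covariate called 6 higher, against 2.18% of all genes. Heat-shock genes were at -0.13 over 23, with 19 negative, led by the chaperones Hspa8 (-0.31, FDR 0.2) and Hsp90ab1 (-0.19, FDR 0.596) in the authors' deposited table. Medians nearer 0 were found for 33 ER-stress genes (0.03), 29 apoptosis genes (-0.01), 37 genes of calcium channels and exocytosis (-0.07) and 18 granin and secretory granule genes (-0.00). Mitochondrially encoded genes were at 0.19 over 12, but at -0.15 between the male libraries. Of 34 immediate-early genes 1 was called, Fosb, an AP-1 subunit, which held 428 and 246 normalized counts in the knockout against 68.3 and 140 in the wild-type libraries. It was 3.23-fold higher, with a log2 fold change of 1.70 (SE 0.40, FDR 0.00518) in the authors' deposited table.

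**Figure D4:**
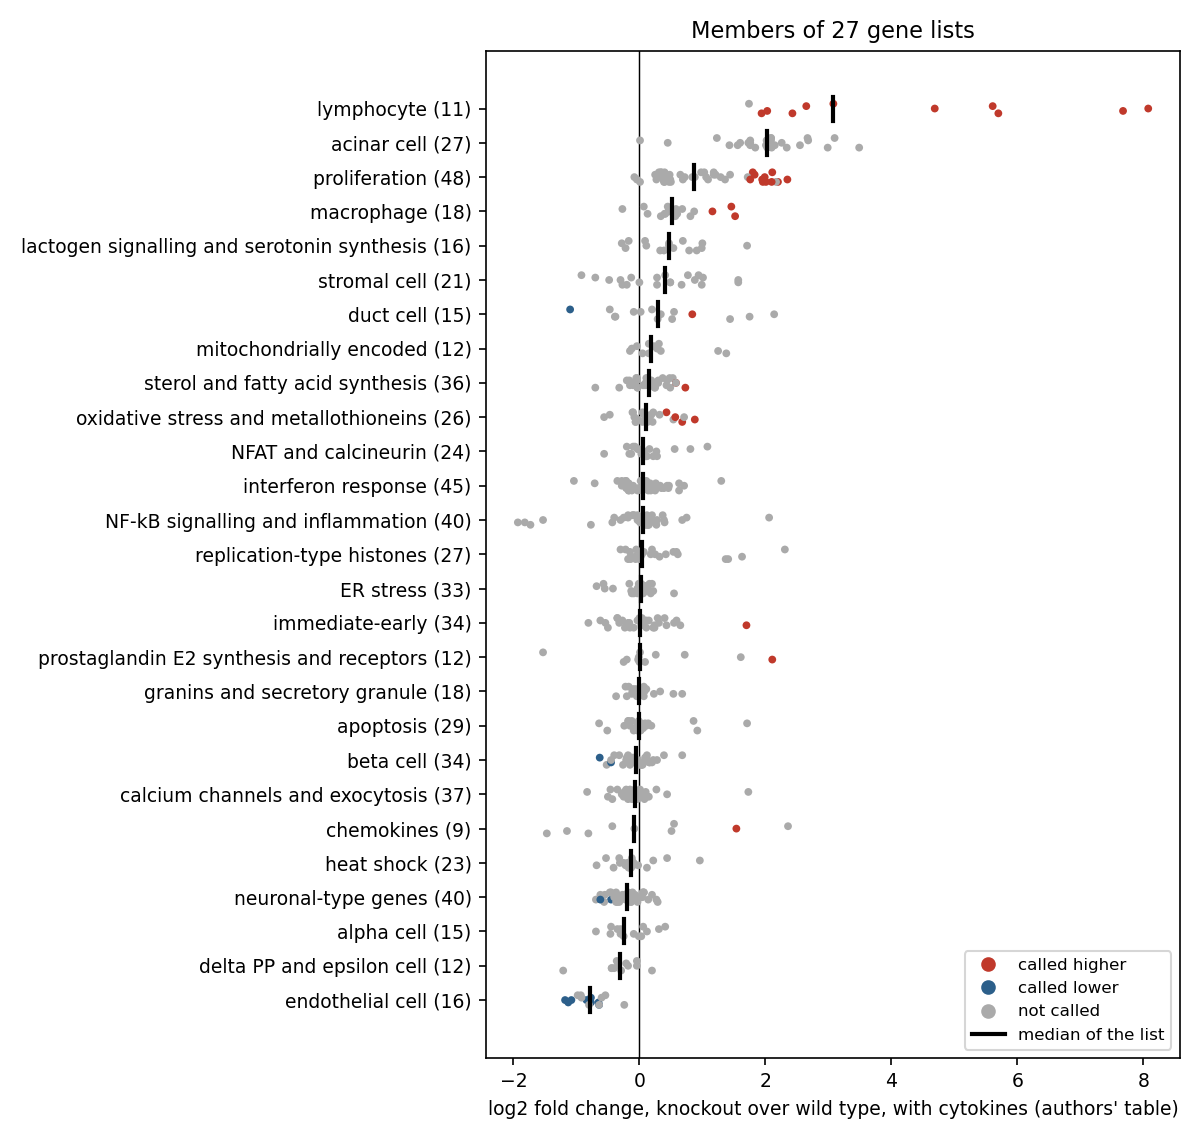
Log2 fold change of knockout over wild type with cytokines in the authors' deposited table (horizontal axis) for each measured member of the gene lists (rows, with the number measured), with black bars at the medians. Lymphocyte (median 3.08), acinar (2.03) and proliferation (0.86) genes lie to the right and endothelial genes (-0.79) to the left, while coloured points, the calls, are absent from the acinar row.

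Further calls lay outside these groups. Tppp3, a microtubule-bundling protein, held 420 and 332 normalized counts in the knockout against 77.5 and 112 in the wild-type libraries (3.98-fold). Lingo1, a membrane protein that restrains axon growth, held 666 and 639 against 288 and 264 (2.36-fold). Tppp3 and Lingo1 had log2 fold changes of 2.00 (SE 0.29, FDR 1.3e-08) and 1.24 (SE 0.19, FDR 1.8e-07) in the authors' deposited table. Pgr, the progesterone receptor, was 90.9% lower: it held 7.64 and 16.5 normalized counts in the knockout and 225 and 39.1 in the wild-type libraries. Reln, the secreted protein reelin, held 24.6 and 27.9 against 70 and 165. The wild-type libraries of Pgr and Reln differed widely from each other while both stayed above the knockout, and the log2 fold changes were -3.47 (SE 0.97, FDR 0.0413) and -2.16 (SE 0.60, FDR 0.0364) in the authors' deposited table.

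Sgcd, a sarcoglycan, held 45.9 and 41.9 normalized counts in the knockout against 117 and 115 in the wild-type libraries, and Npas2, a clock transcription factor, 77.3 and 49.5 against 171 and 215. Cyyr1, a small membrane protein, held 106 and 178 against 340 and 350, and the channel-like protein Tmc7 179 and 227 against 410 and 426. As in every called gene, the groups of these 4 did not overlap. Their log2 fold changes lay between -1.59 (Npas2, FDR 0.00552) and -1.05 (Tmc7, FDR 0.00094), with Sgcd at -1.40 (FDR 0.00706) and Cyyr1 at -1.29 (FDR 0.00742), in the authors' deposited table.

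The genotype difference was then set beside that in the untreated islets of the same mice. Without cytokines 67 genes were called in the authors' deposited table (0.41% of genes), 58 higher (0.355%) and 9 lower (0.0551%). Of these, 47 were called in both states, which is 28.8% of the calls with cytokines and 70.1% of those without, and all 163 genes called with cytokines had the same sign without, as did 71.7% of all genes. Both comparisons draw on the same 4 mice, so the second is no independent check of the first. Ptger3 differed about as much in both states: it held 339 and 315 normalized counts in the untreated knockout libraries and 74.5 and 69.1 in the untreated wild-type ones, where Top2a held 343 and 396 against 115 and 118. Endothelial genes held 0 calls untreated, with a median log2 fold change of -0.32, and lymphocyte genes held 3, with a median of 2.07, in the authors' deposited table. Still, 15 of the 16 endothelial genes were negative untreated, and in 14 both knockout libraries lay below both wild-type libraries (18.3% of all genes). Proliferation genes held 6 higher calls untreated, with a median of 0.65. In 40 of those 48 both knockout libraries lay above both wild-type libraries (18.6% of all genes). The acinar median was 0.46 and the stromal median 1.85 untreated, against 2.03 and 0.41 with cytokines, in the authors' deposited tables.

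Whether the genotype difference itself changed with cytokines was tested for every gene as the difference of the deposited log2 fold changes. At an adjusted p below 0.05 there were 0 genes, with a smallest adjusted p of 1 and 47 genes at an unadjusted p below 0.05. The interaction contrast of limma also gave 0, with 105 unadjusted, and 0 with the mouse as a block, with 721 unadjusted. A call in one state and not in the other is therefore not shown to be a difference between the states. The 4 genes that follow had the smallest unadjusted p-values at a mean of 50 or more over the treated groups. Bank1 and Ccr7 meet that mean through the treated knockout libraries only (41.2 and 30 over all libraries). The order depends on the fit: with the mouse as a block Lox, a collagen cross-linking enzyme, had an unadjusted p of 5.1e-05 against 0.0166 for Ptprc, and in limma without the block Ccr7 was at 0.126. Ptprc went from a genotype difference of 1.15 untreated to 2.43 with cytokines (difference 1.28, SE 0.45, unadjusted p 0.00478), in log2 fold changes of the authors' deposited tables. Myo1g, a myosin of blood cells, went from 0.47 to 2.58, Bank1, a B-cell scaffold, from 2.21 to 5.65 and Ccr7, the lymph node homing receptor, from 0.77 to 4.71 on that scale of the authors' deposited tables. Ccr7 held 178 and 29.2 normalized counts in the treated knockout against 4.44 and 10.7 in the untreated knockout libraries, and 1.67 and 6.52 in the treated wild-type ones. The rise thus lay mainly in the knockout male library.

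**Figure D5:**
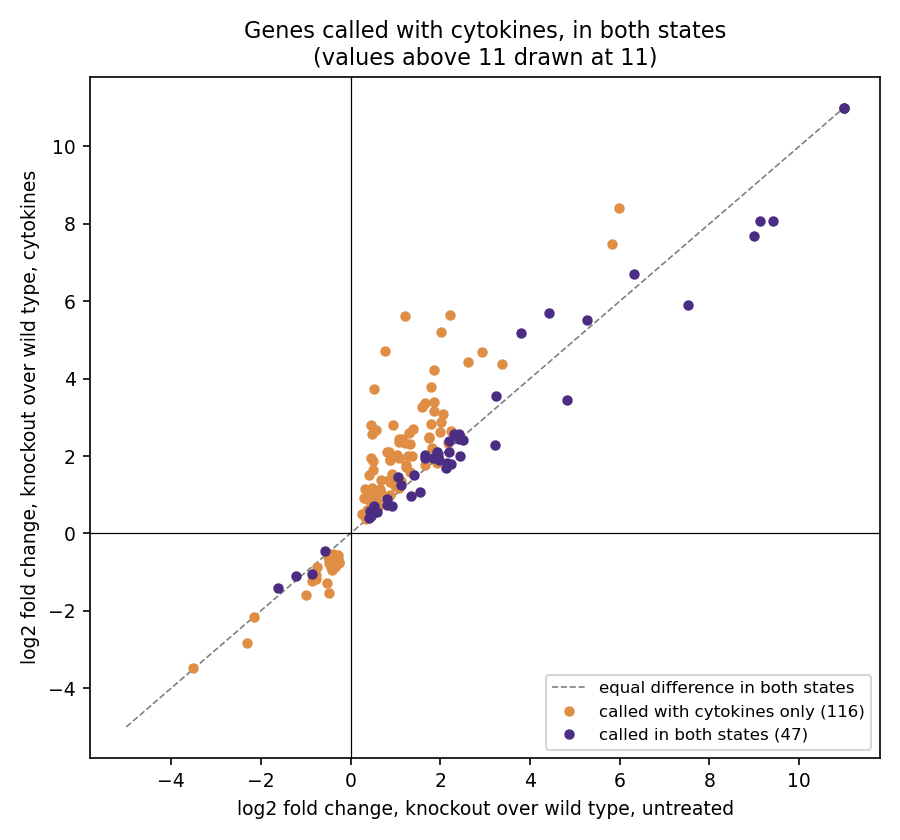
Log2 fold change of knockout over wild type in untreated (horizontal axis) and cytokine-treated islets (vertical axis) for the 163 genes called with cytokines, from the authors' deposited tables, with a dashed line of equal difference. All points share their sign, the 47 called in both states lie near the line, and most of the others lie farther from 0 with cytokines, as choosing genes by that axis favours.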

How the data were processed

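Total RNA of islets was sequenced after Trizol extraction with standard Illumina libraries, per the labels' protocols. The sources used here do not state strandedness, and antisense partners cannot be told apart. HISAT2, HTSeq, DESeq2 and the build GRCm38 are named in the submitters' processing notes, without versions or roles. The deposited tables hold group means as signal (counts over size factors), log2 fold changes, a Wald score, p-values and FDR q-values, made by the authors. Their headers set KO against Mut. The latter name, which no label explains, was read as the wild type, and every direction rests on that reading. Standard errors are the log2 fold change over the score, and a gene was called at FDR below 0.05.

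Whole reads were recovered from the printed digits of the deposited means, 16102 genes from every group mean alone and 217 through the overall mean; 14 genes, such as Ins1 and Gcg, kept group means only. The smallest mean was 23.2, so low genes had been filtered before deposit. limma 3.58.1 (voom, R 4.3.3, Benjamini-Hochberg) was fitted to the reads as an alternative, and the recovery and fits were tested on simulated data. Counts are PCR reads, and depth limits low genes. Positions are from GENCODE M21, promoters from RefSeq.

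The comparison, gene lists and naming rule were chosen with earlier results of these data known. Named were Nfatc2; the 10 smallest p-values per direction among calls; the 6 largest changes per direction at a mean of 50 or more; per list, the 2 members of smallest p; 8 set genes (Ins1, Ins2, Gcg, Sst, Ppy, Cxcl10, Nfkbia, Birc3); and the 4 smallest p-values of the difference between states. A few genes are not reported here. Other names are said to be later picks or list members shown as examples. The lists not described above are erythroid genes (0 measured) and sex-linked genes (0 of 5 called). The labels say that islets came from separate mice and were treated in duplicates. Each library within a group is thus taken as 1 mouse, and treated and untreated libraries as sharing the same 4 mice.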

Additional observations from a re-analysis of the deposited data

How the results depend on the processing

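The count of 163 called genes became 231 at an FDR below 0.1 and 93 below 0.01, 103 with a mean of at least 50 normalized counts and 84 with at least 100, and 117 with a log2 fold change of at least 1. With limma on the recovered reads it was 2 with voom, 2 with the trend method, 2 with the authors' size factors, 0 on the 4 treated libraries alone (847 at an unadjusted p below 0.05) and 567 with sex as a covariate. Leaving out each library in turn gave 0 to 1 calls in limma, where the lone library of its group is assumed to vary like the other groups. Nfatc2 kept its log2 fold change of -0.56 and passed with the sex covariate (adjusted p 0.0426); without single libraries it lay between -0.87 and -0.28. The cause of these shifts was not tested. Of 84 named genes with recovered reads, the sex covariate left 62 on the same side of the threshold, moved 16 past it and took 6 below.

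Some values near 0 or tied to sex changed sign. Where a library left out is named, the log2 values after it are the reversed ones, and the far end of the range over all 4 libraries left out stands in parentheses. Ddx3y went from -0.33 to 1.15 in limma on 8 or 4 libraries and to 5.21 and 8.03 without the knockout female or wild-type male library (-4.27), and Xist from 0.14 to -2.56 and -4.29 without the same (7.10). Sst went to 0.38 without the wild-type female (-0.82), Ppy to -0.05 without the knockout female (0.39), and Nfkbia to -0.03 and -0.04 without the knockout or wild-type male library (0.16). The chemokine median became 0.22 in limma, 0.28 without the knockout male, 0.17 without the knockout female, 0.92 without the wild-type female (-0.78), and 0.73 between male libraries. The beta-cell median became 0.02 and 0.04 without the knockout male or wild-type female library (-0.16). The prostaglandin median became -0.02 and -0.11 without the knockout female or wild-type male library (0.19) and -0.08 between female libraries, and the immediate-early median -0.00 without the knockout male, -0.30 without the wild-type male (0.24), and -0.32 between female libraries. The medians within a sex were added after the data had been seen.

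No paired analysis was possible because the recovered libraries carry no replicate number. Fits with sex as a covariate and, for the difference between states, with the mouse as a block were run. With sex, 2.18% of all genes were called higher and 1.29% lower, so more calls in a list than in the deposited table are to be read against these shares. Called were 4 of 40 neuronal-type genes lower, and of 36 sterol genes 3 higher and 1 lower. Of 12 prostaglandin genes 2 were higher, as were 2 of 9 chemokines. Of 37 calcium and exocytosis genes 3 were lower and 1 higher, and of 31 beta-cell genes with recovered reads 3 were lower and 1 higher. The 2 libraries a group limit what can be called, and genes under about 100 normalized counts rest on few reads.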
